A study of Mus musculus with 90 samples.

Results

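The genes described here encode the subunits, activators, inhibitor and assembly factors of the proteasome. They were taken by symbol, as every gene named Psma to Psmg followed by a number, which gave 50 of the 24422 genes in the count table. One of the 50, Psmc3ip, encodes a factor of meiotic recombination and shares only the start of its symbol, so 49 proteasome genes remained. A gene was tested if at least 5 libraries held 1 CPM of it (counts scaled to a common library size), and 48 of the 50 genes and 16511 genes in all passed. The 2 that did not were Psmb8 and Psme2b, whose few counts are given with the replacement subunits and the activators.

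The proteasome degrades proteins that carry a ubiquitin chain. Its core is a barrel of stacked rings, outer rings of alpha subunits (Psma) around inner rings of beta subunits (Psmb) that hold the proteolytic sites, and it is capped by a regulatory particle whose base of ATPases (Psmc) and scaffolds unfolds the substrate and whose lid (Psmd) removes the ubiquitin. In the mouse the egg carries stored maternal mRNA and protein, much of which is degraded as the embryonic genome becomes active during the 2-cell stage, and proteasome activity is known to be needed for that transition.

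Single MII oocytes, 2-cell (2c) and 8-cell (8c) embryos of the CD-1 strain were compared between wild type (WT) and animals without maternal Plag1, a zinc finger transcription factor. Oocytes came from unmated, superovulated WT or Plag1 knockout (KO) females 21 to 23 h after hCG, and embryos from such females mated to WT studs, grown in KSOM medium until 45 to 47 h (2c) or 71 to 73 h (8c) after fertilisation. The KO oocytes thus lacked Plag1, while the embryos of KO females (matPlag1KO) were heterozygous and kept the paternal allele, and every group shared the superovulation and a WT father where there was one. Libraries were made in 2 pools, called plate A and plate B here, each with every stage and genotype, by a method that counts the 5′ ends of polyadenylated RNA and includes synthetic spike-in RNAs.

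Of 90 libraries, 78 were kept, comprising 16 WT and 14 KO oocytes, 11 WT and 11 matPlag1KO 2c embryos, and 15 WT and 11 matPlag1KO 8c embryos. Kept libraries held 92475 to 2502421 gene counts, and the 2c groups were the shallowest, with medians of 148473 (WT) and 163626 (matPlag1KO). The labels do not name the donor female of an oocyte or embryo, so p-values measure only the spread between these samples. Plag1 itself followed the labels in oocytes, with 326 counts in 16 of 16 WT libraries against 4 counts in 3 of 14 KO libraries (log2 fold change -5.64 ± 0.646 SE, edgeR quasi-likelihood test with Benjamini-Hochberg adjustment over all tested genes, adjusted p = 1.476e-10). At the 2c stage it was higher in matPlag1KO embryos, which had 91 counts in 9 of 11 libraries against 1 count in 1 of 11 WT libraries (CPM ratio 77.8, 95% counting interval 13.6 to 3105), and which allele these counts came from was not tested. All 8 oocyte markers were detected in every group, and 6 of 8 markers of the 2c stage in both 2c groups (Tcstv1 and Tcstv3 were at 0). Of 9 cumulus markers 3 were detected in WT and 5 in KO oocytes. The defining genes Has2, Ptx3 and Tnfaip6 were at 0 in WT oocytes, whereas in KO oocytes Ptx3 and Tnfaip6 were at 0 and Has2 was detected. The summed level of the cumulus list stayed at or under 8.08 CPM in WT and 5.66 CPM in KO oocytes, while blood markers reached 578 CPM in 1 WT oocyte.

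Since the method marks the 5′ ends of transcripts, the DNA just before the gene start is where transcription factors could act on these counts. The 150 bases before the start of 3 genes that were lower in matPlag1KO 2c embryos are shown as a set because, between them, they hold every motif searched. They are from mm9, 5′ to 3′ on the strand of the gene, and capitals mark a match on either strand to the PLAG1 motif, the antioxidant element bound by Nrf factors, the CCAAT box or the ETS core. The sequences lie upstream of Psmb1 (a core beta subunit), Psmb2 (another) and Psmd11 (a lid subunit that touches the core).
Psmb1 (chr17:15635241-15635390, minus strand): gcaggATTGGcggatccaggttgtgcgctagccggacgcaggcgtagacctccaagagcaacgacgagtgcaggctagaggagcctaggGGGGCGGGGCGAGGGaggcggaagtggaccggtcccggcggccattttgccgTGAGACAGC
Psmb2 (chr4:126354737-126354886, plus strand): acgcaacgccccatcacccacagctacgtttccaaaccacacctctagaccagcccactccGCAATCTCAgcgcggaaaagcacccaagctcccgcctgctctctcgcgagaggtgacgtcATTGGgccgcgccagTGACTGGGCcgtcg
Psmd11 (chr11:80241967-80242116, plus strand): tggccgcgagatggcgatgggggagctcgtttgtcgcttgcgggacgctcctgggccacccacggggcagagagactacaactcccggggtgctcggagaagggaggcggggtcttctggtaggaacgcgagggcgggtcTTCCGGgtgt

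The stretch before Psmb1 held a PLAG1 motif, an antioxidant element and a CCAAT box, that before Psmb2 held 2 antioxidant elements and a CCAAT box, and that before Psmd11 an ETS core. The motifs were searched in the 250 bases before the start of 24323 genes, both strands, each counted apart so that matches could overlap. The PLAG1 motif, written as GAGGC or GGGGC, then 6 to 8 bases of any kind, then GGG, lay before 11 of the 50 genes (22.0%) and before 23.8% of all genes. The antioxidant element (TGACNNNGC or TGAGNNNGC, where N is any base) lay before 15 (30.0%, against 23.8% of all) and CCAAT before 17 (34.0%, against 35.2%). The ETS core CCGGAA lay before 20 of the 50 (40.0%), compared with 14.5% of all genes. Of the 6 genes lower in matPlag1KO 2c embryos described next, Psmb1 alone had the PLAG1 motif, Psma6, Psmb1, Psmb2 and Psmd7 had the antioxidant element, Psma3, Psma6, Psmb1 and Psmb2 had CCAAT, and Psmd11 had the ETS core. These matches describe letters in a window and not bound sites.

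The summed level of the 49 proteasome genes in CPM, a share of the counts of a library, was far higher at 8c than at the earlier stages. It was 2429.7 to 7977.3 CPM (median 4311.8) in WT and 3905.9 to 6751.6 (median 5941.7) in KO oocytes. In 2c embryos it ran from 2148.7 to 4430.1 (median 3153.1) in WT and from 1664.6 to 3186.0 (median 2007.2) in matPlag1KO, and in 8c embryos from 11409 to 16467.4 (median 13991.6) and from 9213.9 to 15343.3 (median 11808.2). In CPM every 8c library lay above every oocyte and 2c library, while the genotypes overlapped at each stage. The lower median of matPlag1KO 2c embryos was found on both plates (2138.82 against 3015.76 CPM on plate A and 1972.83 against 3153.06 on plate B). At 2c and 8c, however, most wells held the same genotype on both plates. Agreement between the plates thus cannot tell genotype from well position at these stages. Relative to the spike-in RNA, given as counts per 1000 spike-in counts, the medians were 195.0 (WT) and 401.5 (KO) in oocytes, 61.7 and 47.4 in 2c embryos, and 554.8 and 416.2 in 8c embryos. On this scale every 8c library lay above every 2c library, but oocytes and 8c embryos overlapped. WT oocytes ran from 53.7 to 794.9 and WT 8c embryos from 279.0 to 633.0. KO oocytes ran from 182.8 to 707.9 and matPlag1KO 8c embryos from 249.8 to 960.6. In these whole-embryo libraries, fewer cells with a transcript and less of it per cell cannot be told apart.

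**Figure D1:**
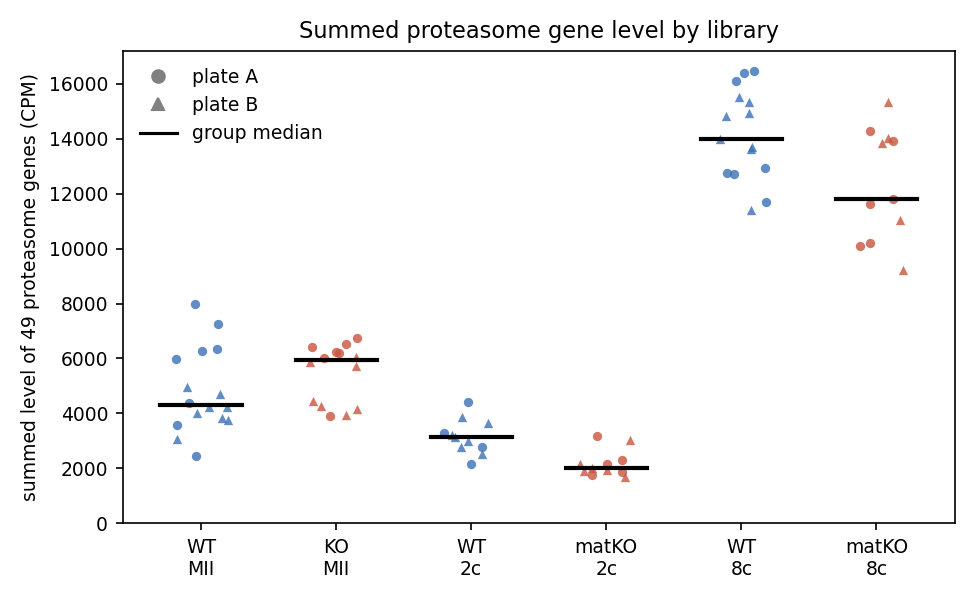
Summed level of the 49 proteasome genes in CPM (y axis) in each library of the 6 groups (x axis, matKO for matPlag1KO), with circles for plate A, triangles for plate B and a line at each group's median. All 8c libraries sit at or above 9213.9 CPM, and the matPlag1KO 2c median of 2007.2 lies below the WT 2c median of 3153.1.

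The first comparison asked which proteasome genes differed between WT and matPlag1KO 2c embryos, the stage at which the embryonic genome takes over. At this stage 6 genes were lower in matPlag1KO embryos and none was higher (edgeR quasi-likelihood test, adjusted p under 0.05). The 6 were core subunits (Psma3, Psma6, Psmb1 and Psmb2) and lid subunits (Psmd7 and Psmd11), and each was 1.92- to 2.61-fold lower. Of all tested genes 2.62% were lower and 2.30% higher, 4.92% in all. Of the 48 tested genes, 34 had a log2 fold change below 0 (42.2% of all genes did) and their median was -0.59, compared with 0.12 over all genes. At an unadjusted p under 0.05 there were 19, of which 16 were below 0. The split between higher and lower moved with the method. It was 3 higher and 5 lower with DESeq2, where 5.64% of all genes were higher and 2.69% lower. With median-ratio scaling factors in edgeR it was 3 and 2, against 4.37% and 1.65% of all genes.

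Psmd11 ranged from 86.2 to 301.6 CPM (median 192.7) in WT and from 31.9 to 227.6 (median 84.7) in matPlag1KO 2c embryos. The groups overlapped, with 10 of 11 matPlag1KO libraries below the WT median and 6 below the lowest WT library. Its log2 fold change was -1.08 ± 0.286 (SE), with an adjusted p of 0.0164 by edgeR. Psmd7, the lid partner of the deubiquitinase Psmd14, ranged from 91.9 to 387.3 CPM (median 180.2) in WT and from 8.0 to 254.3 (median 56.8) in matPlag1KO embryos. Here 7 matPlag1KO libraries lay under the lowest WT library and 2 lay above the WT median. The difference was -1.11 ± 0.321 on the log2 scale (edgeR adjusted p = 0.0291).

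Among the alpha subunits, which form the gated outer rings, Psma6 ranged from 42.4 to 244.7 CPM (median 114.7) in WT and from 36.5 to 101.6 (median 49.1) in matPlag1KO embryos. All 11 matPlag1KO libraries were below the WT median, though only 3 were below the lowest WT library. The log2 fold change was -1.04 ± 0.295 (edgeR adjusted p = 0.0258). Psma3 ranged from 172.4 to 427.8 CPM (median 260.0) in WT and from 49.4 to 321.3 (median 142.0) in matPlag1KO embryos. With 8 matPlag1KO libraries under every WT library and 2 above the WT median, the groups again overlapped, and the difference was -0.99 ± 0.311 (edgeR adjusted p = 0.0439).

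The beta subunits without a proteolytic site, Psmb1 and Psmb2, showed the same direction. Psmb1 ranged from 46.0 to 529.1 CPM (median 211.5) in WT and from 8.0 to 272.6 (median 87.7) in matPlag1KO embryos, a log2 fold change of -1.38 ± 0.414 (edgeR adjusted p = 0.0353). Of its matPlag1KO libraries, 10 of 11 were below the WT median and 3 below the lowest WT library. Psmb2 ranged from 86.2 to 365.9 CPM (median 174.8) in WT and from 46.2 to 252.9 (median 74.1) in matPlag1KO embryos, a log2 fold change of -0.94 ± 0.302 (edgeR adjusted p = 0.0487). It had 10 libraries below the WT median, 7 of them below all WT libraries. No gene of the 50 separated the genotypes without overlap at any stage, which 0.0182% of tested genes did in oocytes, 0.0121% in 2c and 0.00% in 8c embryos.

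**Figure D2:**
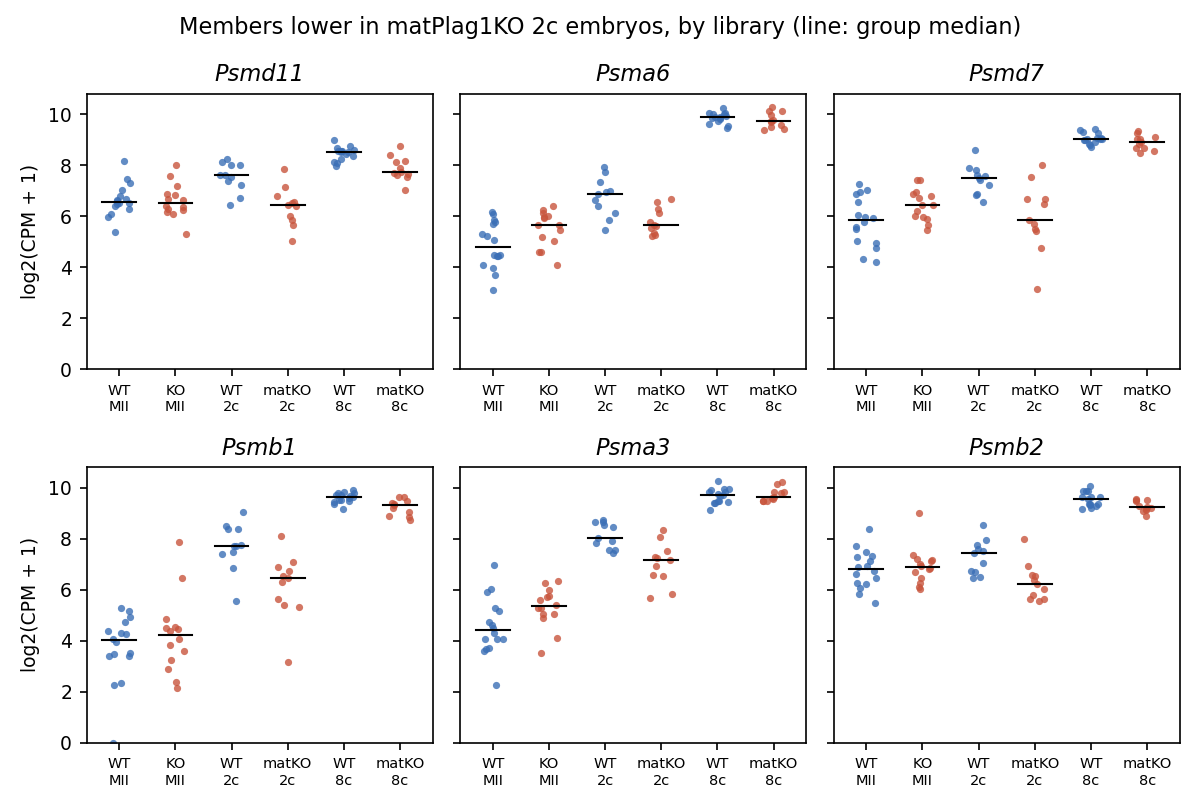
Level by library, as log2(CPM + 1), of the 6 proteasome genes that were lower in matPlag1KO 2c embryos (1 panel each), in the 6 groups, with a line at each median. The matPlag1KO 2c libraries sit lower than the WT 2c libraries with overlap in every panel. The 8c groups overlap in every panel too. For Psmd11, Psmb1 and Psmb2 10 of 11 matPlag1KO 8c libraries lie below the WT 8c median, with 7, 4 and 3 below the lowest WT 8c library. For Psmd7, Psma6 and Psma3 8, 7 and 6 lie below the WT 8c median.

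By role, the 31 standard subunits of the core and regulatory particle held all 6 lower genes, and 27 of the 31 were below 0, with a median of -0.75. The alpha subunits had 6 of 7 below 0 (median -0.74, 2 called) and the beta subunits 6 of 7 (median -0.94, 2 called), the exception among the latter being Psmb3 at 0.90 (adjusted p = 0.0982 by edgeR). All 6 ATPases of the base were below 0 (median -0.59) and none passed the test, the lowest being Psmc6 at -1.28 (edgeR adjusted p = 0.0729). The lid had 7 of 8 below 0 (median -0.88, 2 called), and of the other base subunits, the scaffolds Psmd1 and Psmd2 and the ubiquitin receptor Psmd4, 2 of 3 were below 0 (median -0.49). Genes outside this standard particle were spread around 0. The 7 assembly factors had 3 below 0 and a median of 0.16, and the 4 tested activators had 3 below 0 and a median of -0.22. The highest of these were not called. Psme3, the nuclear activator PA28 gamma, ranged from 11.3 to 155.1 CPM (median 55.5) in WT and from 60.1 to 223.6 (median 135.5) in matPlag1KO embryos, with all 11 matPlag1KO libraries above the WT median, and its difference of 1.04 ± 0.396 had an adjusted p of 0.105 by edgeR.

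**Figure D3:**
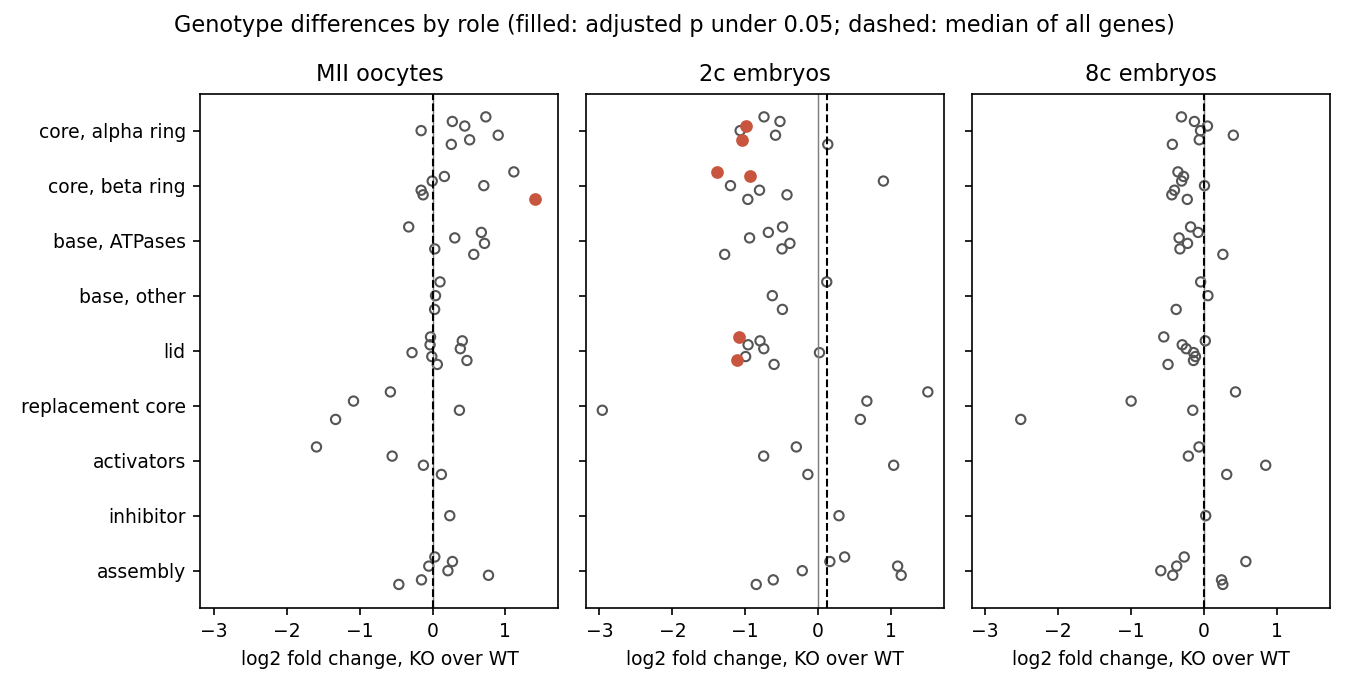
Log2 fold change of KO or matPlag1KO over WT (x axis) for 47 tested proteasome genes grouped by role (y axis) in MII oocytes, 2c and 8c embryos, with filled points for an adjusted p under 0.05 and a dashed line at the median of all genes. In 2c embryos 27 of the 31 standard subunits lie below 0 and 6 are filled, whereas assembly factors and activators scatter around 0.

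Stage markers moved with the genotype at 2c. The summed level of the 2c markers was 83.3 to 1096.6 CPM (median 202.9) in WT and 254.3 to 1657.2 (median 567.2) in matPlag1KO embryos, and that of the oocyte markers had medians of 3468 and 5263. The groups overlapped for both lists, and the part of these levels in the proteasome result was not tested. Marker medians differed at the other stages too, with overlap. Oocyte markers were at 8286 CPM in WT and 24985 in KO oocytes. A list of 8c markers was at 787.1 in WT and 421.0 in matPlag1KO 8c embryos. At 2c the cumulus markers (6 of 9 detected in each group) overlapped as well, at 8.6 to 106.1 CPM (median 39.4) in WT and 0 to 87.7 (median 32.6) in matPlag1KO embryos. Within plate B 5 genes were lower (Psmb1, Psmb4, Psma4, Psmd7 and Psmd11), where 2.32% of all genes were, with a median of -0.59. Within plate A no proteasome gene and no other gene passed edgeR's test, 5 of the 48 had an unadjusted p under 0.05, and the median was -0.62. None of the 6 was called when all 90 libraries were used or when spike-in counts set the scale, where the medians were -0.50 and -0.39.

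In MII oocytes, the stage before any embryonic transcription, 1 gene was higher in KO and none was lower by edgeR's quasi-likelihood test, compared with 0.309% of all genes higher and 0.472% lower (0.781% in all). At an unadjusted p under 0.05 there were 6, of which 5 were above 0, DESeq2 also called 1 gene higher and none lower, and the median of 0.08 was near that of all genes (0.00). The gene was Psmb7, the core subunit with the trypsin-like site, at 0 to 39.5 CPM (median 7.1) in WT and 0 to 190.2 (median 13.3) in KO oocytes. Its counts were low in most oocytes, 109 in 16 WT and 341 in 14 KO libraries, and the groups overlapped down to 0. The log2 fold change was 1.41 ± 0.365 (edgeR adjusted p = 0.0340), and 11 of 14 KO oocytes lay above the WT median. The call depended on 1 KO oocyte of plate A, which held 184 of the 341 KO counts at 190.2 CPM. The next highest KO oocyte was at 41.0 CPM. Without that library no proteasome gene passed edgeR's test in oocytes (3 at an unadjusted p under 0.05), and Psmb7 was at 0.47 ± 0.317 (edgeR adjusted p = 0.732). Within plate A its value went from 1.50 to 0.16 when that library was left out, while within plate B it was 1.38, and none of these passed edgeR's test (adjusted p = 0.137, 0.995 and 0.0999).

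Several subunits had KO over WT values of opposite sign on plates A and B. On plate A the WT oocytes were in well row A and the KO oocytes in row B, and on plate B the reverse. Within a plate genotype and well row thus cannot be told apart. A value that changes sign between the plates is higher in the same well row on both. Whether the well row or the spread between oocytes gave such values was not tested. Psmb1 was higher in KO oocytes on plate A (1.91, edgeR adjusted p = 0.0319) and had a log2 fold change of -0.78 on plate B. Its call on plate A also depended on the oocyte with the high Psmb7 level (230.5 CPM of Psmb1, next highest 86.6), without which Psmb1 did not pass edgeR's test (adjusted p = 0.421, unadjusted p = 0.0352). Psmf1, the inhibitor PI31, was at -0.97 on plate A and higher on plate B (2.06, edgeR adjusted p = 0.00180). The lid subunits Psmd8 (1.16 and -1.12) and Psmd11 (-0.83 and 0.74) and the ATPase Psmc5 (0.96 and -0.78) also changed sign from plate A to plate B, without passing the test. Psma1, an alpha subunit, was above 0 on both plates (0.43 and 1.43) and passed the test on plate B alone (adjusted p = 0.0404 by edgeR).

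In 8c embryos no proteasome gene differed between the genotypes by edgeR's quasi-likelihood test, or by DESeq2, where 1.74% of all genes did by edgeR. At an unadjusted p under 0.05 there were 4 (Psmb9, Psmb10, Psmd11 and Psme3). Of the 48 genes 34 were below 0, against 47.9% of all genes, with a median of -0.17. The 6 genes lower at 2c had 8c log2 fold changes between -0.55 (Psmd11, 95% confidence interval -1.05 to -0.05) and 0.05 (Psma3, -0.49 to 0.59). For Psmb1 the interval was -1.07 to 0.36 and for Psmd7 -0.69 to 0.41. Whether the difference itself changed from 2c to 8c was tested as an interaction, given below, and by edgeR no proteasome gene passed that test. The catalytic subunits Psmb5, Psmb6 and Psmb7 were at -0.40, -0.44 and -0.23, with intervals that included 0.

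Whether the genotype difference itself changed between stages was tested as an interaction. From MII to 2c it became lower for 6 genes and higher for none, where 1.68% of all genes were lower and 1.62% higher (3.31% in all). At an unadjusted p under 0.05 there were 24, of which 19 were below 0, and the median was -0.59, compared with 0.14 over all genes. The 6 were Psmb1 (-2.50 ± 0.555, edgeR adjusted p = 0.00388), Psmb7 (-2.37 ± 0.556, adjusted p = 0.00651), Psma6 (-1.55 ± 0.383, adjusted p = 0.0108), Psmd7 (-1.58 ± 0.416, adjusted p = 0.0176), Psmc6 (-1.85 ± 0.531, adjusted p = 0.0336) and Psma3 (-1.44 ± 0.413, adjusted p = 0.0338). For Psmb7 the term combined the KO oocyte value with a value of -0.96 in matPlag1KO 2c embryos, and without the single high KO oocyte it was -1.44 (edgeR adjusted p = 0.0731). Psmb1 was at -1.67 without that oocyte (edgeR adjusted p = 0.0425), and the other 4 stayed called. This term uses the same oocytes and 2c embryos as the comparisons above and is not separate evidence. From 2c to 8c no gene had an interaction by edgeR, with 11 at an unadjusted p under 0.05 and a median of 0.43 (-0.09 over all genes), where 2.30% of all genes had one. DESeq2 called 1 higher and 2 lower, against 2.23% and 2.72% of all genes.

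Changes over the stages were measured against spike-in RNA, so that a value is an amount per library and not a share of its mRNA. From WT oocytes to 2c embryos, 28 of the 48 genes fell and 9 rose by edgeR's quasi-likelihood test, where 51.3% of all genes fell and 14.1% rose (65.4% in all). Their median log2 fold change was -1.17, compared with -1.46 over all genes. From KO oocytes to matPlag1KO 2c embryos 34 fell and 7 rose, against 50.3% and 13.5% of all genes (63.8% in all), with medians of -2.20 and -1.42. The direction of many genes depended on the scale, since with TMM factors, which compare shares of the mRNA, the WT counts became 14 falling and 18 rising and the KO counts 20 and 13, and 9 of the 37 genes called in WT (Psmd6, Psmd3, Psmd11, Psmb6, Psme4, Psmc2, Psmb2, Psmd12 and Psma1) and 5 of the 41 called in KO (Psmb7, Psmd3, Psma6, Psme4 and Psme3) changed sign. With these factors 23.1% of all genes fell and 27.5% rose in WT, and 19.3% and 29.1% in KO. Plates differed too, with a WT median of -1.97 on plate A (28 fell, 4 rose) and -0.07 on plate B (17 fell, 12 rose), beside medians of all genes of -2.17 and -0.67. Of all genes 46.9% fell and 7.56% rose on plate A, and 30% and 15.9% on plate B.

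The genes that fell most in WT were Psma7, Psmf1 and Psmd9. Psma7, an alpha subunit, went from 4.84 to 118.9 counts per 1000 spike-in counts (median 51.5) in oocytes to 0.461 to 3.02 (median 1.67) in 2c embryos, with every 2c library below every oocyte (log2 fold change -5.49 ± 0.426, edgeR adjusted p = 6.507e-20). The inhibitor Psmf1 went from 1.42 to 204.6 (median 7.35) to 0.239 to 2.52 (median 1.32) on the same scale, with overlap (-4.80 ± 0.655, edgeR adjusted p = 1.177e-09). Psmd9, an assembly chaperone of the base, went from 2.05 to 30.6 (median 10.2) to 0 to 1.40 (median 0.729), with no overlap (-4.22 ± 0.455, edgeR adjusted p = 2.683e-13).

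Others were nearly absent from oocytes and rose. Psmb5, the subunit with the chymotrypsin-like site, had 23 counts over 16 WT oocytes and 307 over 11 WT 2c embryos. Per 1000 spike-in counts it went from 0 to 0.759 (median 0.0465) in oocytes to 0.707 to 5.67 (median 3.07) in 2c embryos, where only the highest oocyte overlapped (4.25 ± 0.502, edgeR adjusted p = 9.593e-12). The lid subunit Psmd13 had 5 counts in the oocytes and 53 in 2c embryos, at 0 to 0.195 (median 0) and 0 to 1.13 (median 0.479) per 1000 spike-in counts (3.58 ± 0.549, edgeR adjusted p = 3.207e-08). Psme1, the alpha subunit of the activator PA28, had 5 and 24 counts (2.55 ± 0.621, edgeR adjusted p = 0.000276), and both of its groups reached down to 0. In all, 3 of the 50 genes did not overlap between WT oocytes and 2c embryos (Psma7, Psmb3 and Psmd9), where 6.60% of all genes did not, and 12 between KO oocytes and matPlag1KO 2c embryos, where 11.2% did not.

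From 2c to 8c the proteasome genes rose nearly as a body. In WT 40 of the 48 rose and 2 fell, where 31.9% of all genes rose and 16.2% fell (48.1% in all), with a median log2 fold change of 2.80 against 0.53 over all genes. In matPlag1KO embryos the counts were also 40 and 2, against 29.1% and 19.5% (48.6% in all), with medians of 3.37 and 0.30. All 31 standard subunits rose in both genotypes, by 1.73 to 5.08 (median 3.11) in WT and 1.47 to 6.06 (median 3.50) in matPlag1KO embryos. With TMM factors 36 rose and 3 fell in WT (21% and 28.9% of all genes), with a median of 1.89 against -0.12 over all genes. These comparisons share the 2c libraries with those from MII to 2c. Of the 50 genes 29 did not overlap between WT 2c and 8c embryos and 29 between the matPlag1KO groups, where 9.70% and 9.12% of all genes did not.

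By role, the median changes of WT embryos at this step were 4.20 for the ATPases, 3.59 for the beta and 3.03 for the alpha subunits, 2.79 for the other base subunits, 2.75 for the assembly factors and 2.49 for the lid. The 3 strongest rises in WT were in Psmb3, Psmb4 and Psmb10, the last of which is given with the replacement subunits. Psmb3, a core subunit without a proteolytic site, went from 0.365 to 1.44 counts per 1000 spike-in counts (median 1.31) in WT 2c to 15.0 to 55.5 (median 39.6) in 8c embryos (5.08 ± 0.418, edgeR adjusted p = 2.088e-18). Psmb4, another such subunit, went from 0 to 1.79 (median 0.461) to 9.63 to 28.3 (median 22.0) on this scale (4.97 ± 0.558, edgeR adjusted p = 1.902e-12). In both genes every 8c library lay above every 2c library. Psmb3 had fallen from MII to 2c in WT (-3.86), whereas Psmb4 had not passed the test there (0.14, edgeR adjusted p = 0.824).

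The 2 genes that fell in WT were Psme4 and Psmd5. Psme4, the activator PA200, went from 0.821 to 2.87 counts per 1000 spike-in counts (median 1.44) in 2c to 0 to 2.39 (median 0.424) in 8c embryos (-1.59 ± 0.413, edgeR adjusted p = 0.000873). Psmd5, a chaperone of base assembly, went from 0 to 1.44 (median 0.718) to 0 to 0.540 (median 0.200) with an adjusted p of 0.0129 by edgeR (-1.52 ± 0.525). Both overlapped between the stages. In matPlag1KO embryos Psme4 also fell (-1.30), while Psmd5 was at -1.29 (edgeR adjusted p = 0.0525) and the other called gene, Psmb9, had 4 counts in 2c and 0 in 8c embryos. The smallest change among the genes that rose by this rule in WT was Psmd9, at 0.240 to 4.42 (median 1.54) in 8c embryos, overlapping the 2c range given above (1.36 ± 0.412, edgeR adjusted p = 0.00442). In matPlag1KO embryos its change was -0.40 (edgeR adjusted p = 0.444).

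**Figure D4:**
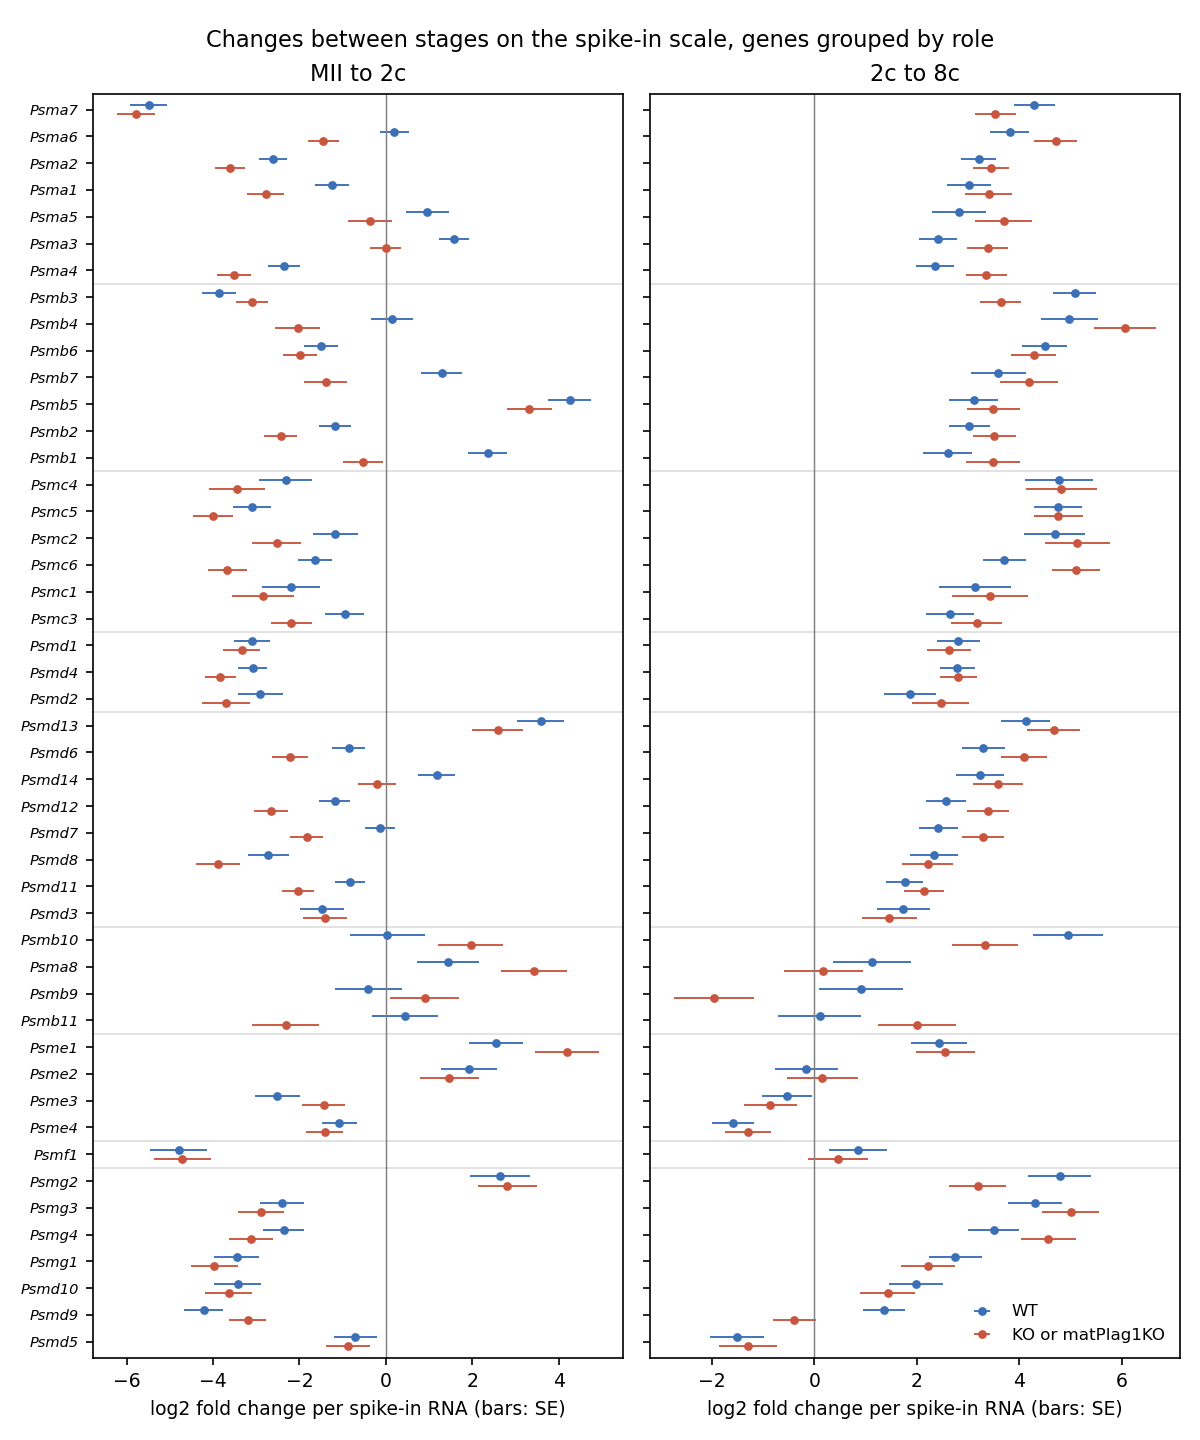
Log2 fold change relative to spike-in RNA with its SE (x axis) for 47 tested proteasome genes grouped by role (y axis), for the steps MII to 2c (left) and 2c to 8c (right), in blue for WT and red for KO or matPlag1KO. From 2c to 8c all 31 standard subunits lie above 0 in both genotypes, whereas from MII to 2c the genes run from strong falls (Psma7 at -5.49 in WT) to strong rises (Psmb5 at 4.25).

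The 3 catalytic subunits followed different courses. Psmb5 rose at both steps in WT (4.25 and 3.11), reaching 13.6 to 33.9 counts per 1000 spike-in counts (median 24.8) in 8c embryos, above every 2c library. Psmb6, which carries the caspase-like site, went from 0.830 to 7.75 (median 1.79) in WT oocytes to 0.119 to 1.41 (median 0.964) in 2c and 7.93 to 27.7 (median 16.2) in 8c embryos. It thus fell (-1.50, above 0 with TMM factors) and then rose (4.50, edgeR adjusted p = 6.44e-15), overlapping between oocytes and 2c embryos but not between 2c and 8c. Psmb7 rose from MII to 2c in WT, from 0 to 2.61 (median 0.294) to 0.846 to 2.74 (median 1.51), and then to 9.68 to 29.9 (median 19.8) at 8c. From KO oocytes to matPlag1KO 2c embryos it fell, with a log2 fold change of -1.39 (edgeR adjusted p = 0.0121), compared with 1.30 in WT (edgeR adjusted p = 0.0135). The KO value rested on the single high KO oocyte, without which it was -0.32 (edgeR adjusted p = 0.534).

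The replacement subunits, which take the place of standard ones in immune cells, thymus or germ cells, were nearly absent except for Psmb10. Psmb8, the immune counterpart of Psmb5, had 2 counts in WT oocytes, 1 in matPlag1KO 2c and 1 in WT 8c embryos, and none in the other groups. Psmb9, the counterpart of Psmb6, had at most 8 counts in a group, and those 8, in WT 8c embryos, were in 1 library. Psmb11 of the thymus had at most 7 and the germ cell subunit Psma8 at most 16 counts in a group. None of these 4 differed between genotypes past the adjusted test, and the test of Psmb9 at 8c, at an unadjusted p under 0.05, rested on that 1 library against 0 counts. As an example, Psma8 had 4 counts in WT and 13 in matPlag1KO 2c embryos, a ratio of 2.78 with a 95% interval of 0.858 to 11.7 for counting error only.

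Psmb10, the counterpart of Psmb7, had 11 counts in WT oocytes and 7 in WT 2c embryos but 422 in WT 8c embryos. Per 1000 spike-in counts it went from 0 to 0.359 (median 0) at 2c to 0.661 to 6.14 (median 1.92) at 8c in WT, with no overlap (4.96 ± 0.683, edgeR adjusted p = 2.328e-09). It also rose in matPlag1KO embryos (3.33), from 13 to 136 counts. Between the genotypes at 8c it had 24.9 to 162.9 CPM (median 47.8) in WT and 0 to 61.4 (median 35.7) in matPlag1KO embryos, a difference that did not pass the test (edgeR adjusted p = 0.216) and whose log2 fold change had a 95% confidence interval of -1.80 to -0.19.

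Of the activators, Psme1 rose at both steps in WT, with 226 counts in 8c embryos, at 0.254 to 3.09 per 1000 spike-in counts (median 0.960). Psme2, its partner in PA28, had 17, 44 and 66 counts in WT oocytes, 2c and 8c embryos, rose from MII to 2c (1.93, edgeR adjusted p = 0.00701) and was at -0.16 from 2c to 8c. Psme2b had 2 counts in all, both in 1 matPlag1KO 8c library. Psme3 fell from MII to 2c in WT (-2.52) and in KO (-1.44, above 0 with TMM factors), from 0.607 to 49.1 per 1000 spike-in counts (median 3.29) to 0.222 to 2.73 (median 0.964) in WT, and did not pass the test from 2c to 8c (-0.53 in WT, -0.86 in matPlag1KO). Psme4 fell at both steps in WT, by 1.07 and 1.59 on the log2 scale, the first of which was above 0 with TMM factors. The inhibitor Psmf1, after its fall from MII to 2c, was at 0.320 to 5.57 (median 1.82) in WT 8c embryos, which did not differ from 2c past the test (0.85, edgeR adjusted p = 0.207).

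Among the chaperones of core assembly, Psmg1, Psmg3 and Psmg4 fell in WT oocytes to 2c embryos and rose afterwards, with log2 fold changes of -3.45, -2.41 and -2.36 at the first step and 2.75, 4.31 and 3.50 at the next. Their WT medians were 2.39, 0.484 and 1.13 counts per 1000 spike-in counts in oocytes, 0.222, 0 and 0.175 in 2c, and 1.90, 1.80 and 2.38 in 8c embryos. Psmg2, which pairs with Psmg1, was at 0 counts in WT oocytes, had 7 in WT 2c embryos and 363 in WT 8c embryos. From 2c to 8c it rose (4.79, edgeR adjusted p = 4.71e-10), from 0 to 0.438 (median 0) to 0.691 to 3.70 (median 1.95) per 1000 spike-in counts, with no overlap. The 95% counting interval of its CPM ratio, WT 2c embryos over oocytes, started at 7.245. Psmd10 of the base chaperones fell (-3.43) and then rose (1.99), from a WT median of 2.13 to 0.202 and then 0.871.

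**Figure D5:**
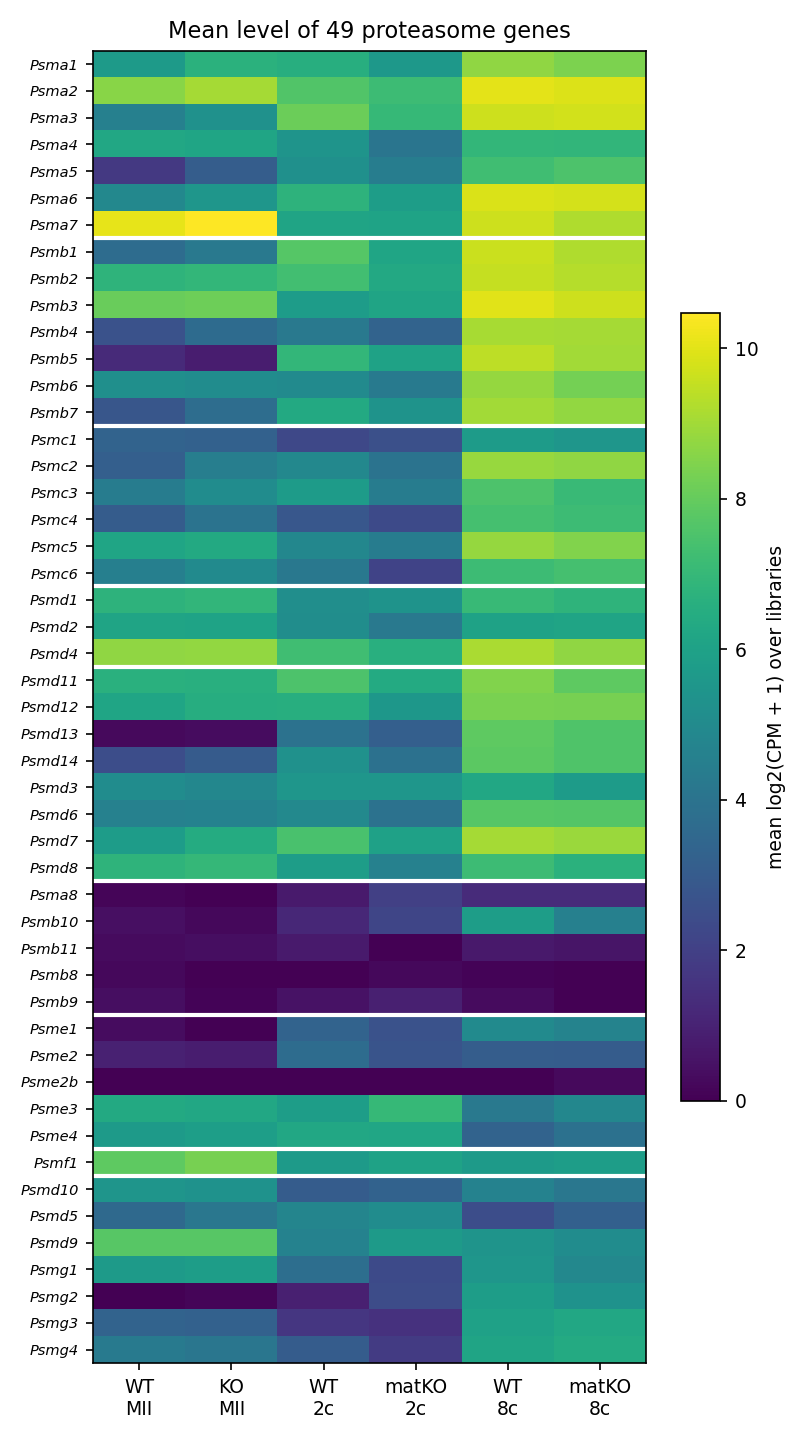
Mean of log2(CPM + 1), shown by colour, of the 49 proteasome genes (rows, by role) in the 6 groups (columns). The 8c groups are highest for most standard subunits, with Psma7 highest in oocytes instead, and Psmb8, Psmb9, Psmb11 and Psma8 lie at the low end throughout.

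Proteasome genes that lie outside the symbol rule were taken from a list of subunits, bound enzymes, shuttles, unfoldases, ubiquitin genes and transcription factors, of which 38 were in the table and 37 were tested. At 2c 2 were lower in matPlag1KO embryos and none higher, where 2.62% of all genes were lower and 2.30% higher. Shfm1, the smallest lid subunit, ranged from 23.0 to 275.8 CPM (median 127.3) in WT and from 0 to 200.8 (median 44.6) in matPlag1KO 2c embryos (-1.30 ± 0.392, edgeR adjusted p = 0.0373). Uchl5, a deubiquitinase bound to the particle, had 10 counts in WT against 1 in matPlag1KO embryos (edgeR adjusted p = 0.0411), a CPM ratio of 0.0855 with a 95% interval of 0.00197 to 0.601 for counting error only. None passed edgeR's test in oocytes, with 3 at an unadjusted p under 0.05. Nfe2l1, a transcription factor of proteasome genes, was at 0.14 at 2c.

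At 8c 2 of the list were lower and 1 was higher in matPlag1KO embryos, where 0.527% of all genes were lower and 1.21% higher. Ubqln1, a shuttle for ubiquitinated proteins, ranged from 15.6 to 376.4 CPM (median 48.3) in WT and from 9.5 to 43.9 (median 27.8) in matPlag1KO embryos (-1.78 ± 0.356, edgeR adjusted p = 0.00164). Nfe2l2, the transcription factor of the oxidative stress response, ranged from 0 to 97.7 CPM (median 33.4) and from 0 to 38.5 (median 8.0) (-1.55, edgeR adjusted p = 0.0470). Zfand2a, a stress-induced factor that binds the proteasome, was higher by the fit (1.37, edgeR adjusted p = 0.0428), although the medians were close (76.4 and 77.5 CPM) and the highest matPlag1KO library reached 740.5. In WT, 25 of the 37 fell and 4 rose from MII to 2c (51.3% and 14.1% of all genes), and 23 rose and none fell from 2c to 8c (31.9% and 16.2%). Pomp, which guides the maturation of the core, followed this course (-1.69 and then 3.35).

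Counts of some genes were uncertain. For 9 of the 49 members with a transcript of this build, another place in the genome matched at least 100 of the first 200 bases at 95% identity or more, so reads could have been split or lost. These were Psma2, Psma3, Psma4, Psmb3, Psmb5, Psmc1, Psmd11, Psme1 and Psme2, of which Psma3 and Psmd11 were among the 6 genes lower at 2c. Psma3 also overlaps the gene 3110056K07Rik.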

How the data were processed

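Single oocytes and embryos were sequenced by STRT, a 5′-end RNA-seq method with oligo(dT) priming, molecular identifiers and 92 ERCC spike-in RNAs. The authors aligned the reads to mm9 with TopHat and counted them in UCSC genes with HOMER, and the deposited values were raw counts per gene and library, not normalised. Versions, and whether strand was used in counting, are not given in the sources used here. Libraries with a median CPM under 1 were left out (12 of 90, by the rule fixed for all groups). Counts were fitted over all groups with edgeR 4.0.16 (R 4.3.3, quasi-likelihood test, Benjamini-Hochberg over all 16511 tested genes, called under 0.05), with TMM factors for genotypes and the interaction and with the spike-in total as library size between stages. Kept libraries held 6645 to 15428 spike-in counts. CPM used TMM-adjusted library sizes, 1 was added before the logarithm, and at these depths 3 counts over a group equalled 0.27 to 1.48 CPM. Intervals and this floor cover counting error only. DESeq2 1.42.0, other scalings, filters, plate as a term, each plate alone and the compared groups alone were alternatives, and the fits were tested on simulated counts. No library was a copy of another (481 pairs). Copies of transcript starts were searched with blastn 2.17.0 and sequences read from mm9 with pysam 0.24.0. Genes given with values by library were those called between genotypes, the 3 highest and 3 lowest called in each WT stage comparison (mean CPM 10 or more in either group), the catalytic and replacement subunits, activators, inhibitor and assembly factors, Plag1, and listed genes of the pathway called between genotypes. Members and lists were chosen with earlier results of these data known.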

Additional observations from a re-analysis of the deposited data

Results flagged for a closer look

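For 6 proteasome genes the difference between genotypes changed from MII oocytes to 2c embryos in edgeR's interaction test with Benjamini-Hochberg adjustment, and this drew attention to them. The changes on the log2 scale were -2.50 for Psmb1, -2.37 for Psmb7, -1.55 for Psma6, -1.58 for Psmd7, -1.85 for Psmc6 and -1.44 for Psma3. For Psmb1 the value was -3.20 on plate A (edgeR adjusted p = 0.0498) and -0.98 on plate B (adjusted p = 0.455), and its oocyte difference had opposite signs on the plates (1.91 and -0.78). For Psmb7 it was -2.52 on plate A and -2.56 on plate B, past edgeR's test on plate B alone. Both rested in part on 1 KO oocyte of plate A with high levels of both genes, without which Psmb7 was at -1.44 (edgeR adjusted p = 0.0731) and Psmb1 at -1.67 (edgeR adjusted p = 0.0425).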

How the results depend on the processing

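Of the counts of called genes recomputed under an alternative, 159 stayed within 1.5 times the reported count and 33 did not. No gene called between genotypes or in the interactions reversed its direction, while stage changes from MII to 2c did with TMM factors, for 9 genes in WT and 5 in KO, and for 4 in WT on plate B. In MII oocytes 2 genes were higher with spike-in scaling, 2 in plate B alone, 0 with the compared groups alone and 0 without the KO oocyte highest in Psmb7 (chosen after seeing the data). In these fits 0.587%, 2.42%, 0.145% and 0.2% of all genes were higher. With the well position as a replicate block 5 of 42 tested were higher (Psmb7, Psmd7, Psmc2, Psmf1 and Psma1), where 4.92% of all genes were higher and 1.18% lower. Each well held a WT oocyte on 1 plate and a KO oocyte on the other. Their deviations correlated from -0.0562 to 0.759 (12 of 14 wells over 0.1, 22 of 28 libraries closest to their own well). As not every well passed 0.1 the main test did not take the wells as pairs, and its p-values leave this correlation out of account. At 2c the 6 lower genes became 0 with all 90 libraries, 0 with spike-in scaling, 2 with median-ratio factors, 0 in plate A and 3 with the compared groups alone, while 3 (DESeq2), 3 (median-ratio) and 1 (compared groups) were higher. Of all genes 1.65% were lower with median-ratio factors and 2.82% with the compared groups alone. The shares of all genes that were higher were 5.64% (DESeq2), 4.37% (median-ratio) and 3.13% (compared groups). Spike-in scaling moved the 2c median of all genes to 0.28 and of the 48 genes to -0.39. Psmd11 stayed called in 8 of 11 alternatives, Psmd7 and Psmb1 in 7, Psma3 in 6, Psma6 in 5 and Psmb2 in 3. From MII to 2c TMM factors gave 18 higher and 14 lower in WT and 13 and 20 in KO, plate A gave 4 higher and plate B 17 lower in WT. From 2c to 8c the 2 lower genes became 0 in plate A and 1 in plate B in WT, and 1 with all 90 libraries, 5 with TMM, 0 in plate A and 1 in plate B in matPlag1KO. The interaction from MII to 2c kept 2 lower genes with all 90 libraries, 3 with spike-in scaling, 1 in plate A and 2 with the compared groups alone, and DESeq2 called 1 higher. The interaction from 2c to 8c gave 1 higher and 2 lower with DESeq2, and 1 higher without the library farthest from each group, an alternative chosen after seeing the data. The cause of these changes was not tested. Depth limits the 2c groups most, where 3 counts equalled 1.27 to 1.48 CPM.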

Other observations

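Psmc3ip, the factor of meiotic recombination that matches the symbol rule without being a proteasome gene, had 0 to 20.02 CPM (median 5.71) in WT oocytes, 7.07 to 72.9 (median 27.7) in WT 2c and 22.0 to 83.8 (median 46.9) in WT 8c embryos. The groups overlapped, and by edgeR relative to spike-in RNA it rose from 2c to 8c in WT (1.40, adjusted p = 0.0122) and in matPlag1KO embryos (1.32, adjusted p = 0.0227). From MII to 2c its change was 1.01 in WT (edgeR adjusted p = 0.0568) and it rose by 1.13 in KO (edgeR adjusted p = 0.0368).

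Of the pathway genes outside the symbol rule, 3 had a genotype difference that changed between stages in edgeR's interaction test. For the lid subunit Shfm1 it became lower from MII to 2c (-1.73 ± 0.508, adjusted p = 0.0378 by edgeR). For the shuttle Ubqln1 (-2.29 ± 0.509, adjusted p = 0.00676 by edgeR) and the stress response factor Nfe2l2 (-2.77 ± 0.670, adjusted p = 0.0146 by edgeR) it became lower from 2c to 8c. Nfe2l2 had a log2 fold change of 1.22 in 2c embryos, which did not pass the test (edgeR adjusted p = 0.135), and was lower in matPlag1KO 8c embryos.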
